A study of Mus musculus with 12 samples.

Results

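The dual-specificity MAP kinase phosphatases are described here through 6 genes: Dusp1, Dusp2, Dusp4, Dusp5, Dusp6 and Dusp10. Every probe set that the array annotation assigns to 1 of these symbols alone was taken, which gave 7 of the 45037 probe sets of the array, for 6 of the 18193 genes with such a probe set. Dusp10 has 2 probe sets and each of the other genes has 1. Of the 7, 6 passed the filter on dim probe sets (a mean of at least 4.05, on the normalised log2 scale used throughout), and the dimmer Dusp10 probe set did not. The 6 that passed had group means of 6.0 or more in all 4 groups, so none of them passed through a single bright group.

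The arrays hold RNA of 4 cell types from mice of the strain background C57BL/10.RIII, with 3 arrays per cell type and 12 in all. Encephalitogenic T cells (EncT), the cells that drive the paralytic disease experimental autoimmune encephalomyelitis, are given as CD4+. The group of regulatory T cells (Treg) is given as CD4+ and TGFbeta+. Both remaining groups are named after the transcription factor FoxA1 and were labelled CD4hi and PD-L1hi. Of these, nFoxA1Treg is titled neuron induced, while a further label calls it natural, and iFoxA1Treg is IFN-beta induced. The labels give no age, sex or purity of the cells, and do not say whether replicates came from separate animals or cultures. The p-values therefore measure only the spread between these arrays, which may be technical, and 3 arrays per group limit the precision.

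MAP kinases (ERK, JNK and p38) are switched on when a MAP kinase kinase phosphorylates a threonine and a tyrosine in their activation loop. The dual-specificity phosphatases remove both phosphates and so switch the kinases off. Many of their genes are themselves induced by MAP kinase signalling, which makes a negative feedback loop, and in T cells several are induced within the early response to antigen receptor stimulation. Dusp1, Dusp2, Dusp4 and Dusp5 encode nuclear, inducible enzymes. Dusp6 encodes a cytoplasmic enzyme selective for ERK, and the Dusp10 product acts mainly on JNK and p38.

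Before the values, the promoters of the 3 genes that were called between nFoxA1Treg and EncT are shown, because early response promoters are known for short binding sites of signal-regulated factors. RefSeq promoter sequences (build GRCm38.p6) were at hand for 5 of the 6 genes, and the 250 bases before the transcription start are printed, 5′ to 3′ on the gene's strand. Capitals mark matches to the cyclic AMP response element core TGACGTC or its full form TGACGTCA, to the Egr site GCGNGGGCG, or to the CArG box, the site of serum response factor. The window of Dusp1 lies at chr17:26508473-26508722 (minus strand), that of Dusp2 at chr2:127335909-127336158 (plus strand) and that of Dusp5 at chr19:53528895-53529144 (plus strand).
Dusp1: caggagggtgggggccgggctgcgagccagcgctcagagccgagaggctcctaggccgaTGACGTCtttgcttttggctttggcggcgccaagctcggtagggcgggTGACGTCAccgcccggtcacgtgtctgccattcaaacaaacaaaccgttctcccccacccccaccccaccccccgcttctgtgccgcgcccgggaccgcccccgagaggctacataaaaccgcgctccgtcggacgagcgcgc
Dusp2: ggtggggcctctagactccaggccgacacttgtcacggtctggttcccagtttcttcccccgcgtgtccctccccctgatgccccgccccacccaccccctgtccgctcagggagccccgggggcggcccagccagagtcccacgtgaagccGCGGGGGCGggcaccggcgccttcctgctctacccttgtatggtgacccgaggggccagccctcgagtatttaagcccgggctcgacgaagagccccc
Dusp5: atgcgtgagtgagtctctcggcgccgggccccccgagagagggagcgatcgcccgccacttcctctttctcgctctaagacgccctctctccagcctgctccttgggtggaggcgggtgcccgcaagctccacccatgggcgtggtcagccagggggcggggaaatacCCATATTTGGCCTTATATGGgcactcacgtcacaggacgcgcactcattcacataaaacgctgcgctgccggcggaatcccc
The sites marked by capitals differ between the 3 windows. Dusp1 has the full TGACGTCA 143 bases before the start and a further TGACGTC 191 bases before it. The full element occurs in 1.55% of the 32851 promoter windows of the same length, and the core, which every full element contains, in 2.78%. Dusp2 has 1 Egr site, found in 4.70% of windows, which overlaps a match to the GC box GGGCGG. Dusp5 has 2 adjoining CArG boxes, 82 and 72 bases before the start, and 1.47% of windows hold at least 1. Of the motifs searched on both strands (these 4, the AP-1 site TGANTCA, the E-box CACGTG, the GC box GGGCGG and the TATA box TATAAA), Dusp6 matched none and Dusp10 matched the GC box alone. CACGTG matched in Dusp1 and Dusp2 and is in 6.02% of windows, GGGCGG is in 32.7%, and no member window held TGANTCA (6.75%) or TATAAA (12.4%). These are matches of letters and not measured binding.

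The 3 arrays with the iFoxA1Treg label differed most in their profile. Across probe sets their correlation with the remaining 9 ran from 0.683 to 0.739, against 0.815 to 0.850 among those 9. Cd4 was 4.24 ± 0.10 (log2, SD, n = 3) there, against group means of 10.39 to 10.57 elsewhere, which runs against their CD4hi label. The summed level of the 7 measured T cell markers was 11.79 to 11.87 (log2 of the summed linear values), against 13.85 to 14.01 in the other groups. The macrophage and monocyte list (8 of 8 measured) was 13.76 to 13.81 against 6.68 to 8.02, the B cell list (6 of 7) 14.05 to 14.20 against 6.31 to 7.29, and that of MHC class II and dendritic cell genes (6 of 6) 13.96 to 14.02 against 6.33 to 9.05. The neuron list (6 of 6) was 6.77 to 7.02 against 7.19 to 7.52. Xist, transcribed from the inactive X of females, was 2.11 ± 0.85 against means of 11.07 or more, so sex and label are confounded in every comparison with these arrays. Each direction given for them is a direction for the arrays labelled iFoxA1Treg, and they are treated after the other 3 groups. On such bulk samples a difference in how many cells carry a transcript and a difference in transcript per cell cannot be told apart.

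Dusp1, which encodes MKP-1, a nuclear phosphatase of p38, JNK and ERK and a classic immediate early gene, differed most among the T cell groups. Its values in EncT were 7.63, 7.57 and 7.58. In nFoxA1Treg they were 8.74, 8.77 and 8.75, and in Treg 8.70, 8.54 and 8.52. All 6 arrays of both regulatory groups lay above all 3 EncT arrays, and the gap was far wider than the spread within any group. Dusp1 rose 2.24-fold in nFoxA1Treg over EncT (8.75 ± 0.011 against 7.59 ± 0.029, SD, n = 3 each, adjusted p = 7.80e-07). In Treg it rose 1.99-fold (8.58 ± 0.097, adjusted p = 1.89e-06). Both comparisons use the same EncT arrays. Dusp1 lies at chr17:26505591-26508472 (GRCm38.p6) and is read by probe set 1448830_at.

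Between both regulatory groups Dusp1 was 0.17 log2 higher in nFoxA1Treg (95% interval 0.051 to 0.29), with no overlap of the arrays and an unadjusted p of 0.00891. It did not pass the adjustment over all probe sets (adjusted p = 1.0), where the test called 0.00740% of probe sets.

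**Figure D1:**
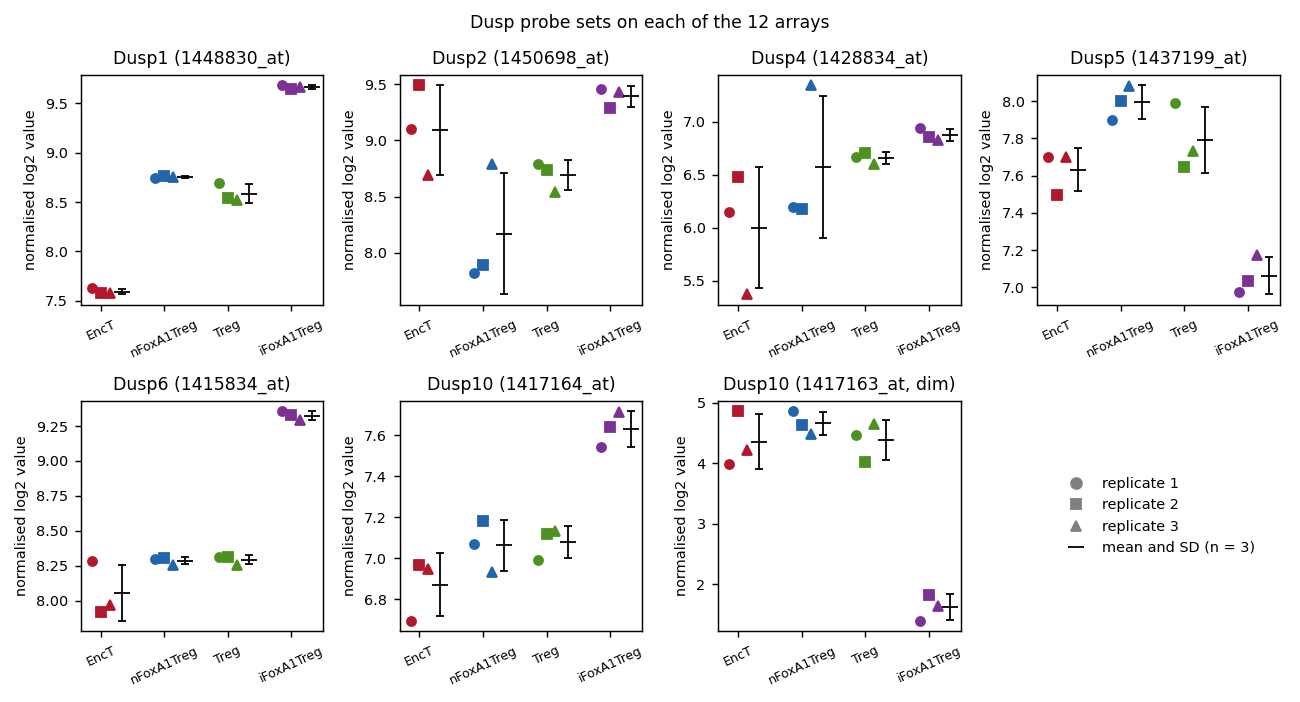
Normalised log2 values (y axis) of the 7 Dusp probe sets on each array, by group (x axis), with symbols for the replicate number and bars for the mean and SD of 3 arrays. Dusp1 separates EncT (7.57 to 7.63) from nFoxA1Treg (8.74 to 8.77) and Treg (8.52 to 8.70), while replicate 3 of nFoxA1Treg stands away from its group in Dusp2 (8.79) and Dusp4 (7.35).

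Dusp2 encodes PAC-1, a nuclear phosphatase known from activated lymphocytes and other leukocytes, and it ran the other way (chr2:127336159-127338377, probe set 1450698_at). EncT had 9.10, 9.49 and 8.69, and nFoxA1Treg had 7.82, 7.89 and 8.79. Replicates 1 and 2 of nFoxA1Treg lay below every EncT array, whereas replicate 3 lay above the lowest EncT array, so the groups overlapped. Dusp2 fell 1.90-fold in nFoxA1Treg (8.17 ± 0.54 against 9.09 ± 0.40, SD, n = 3, adjusted p = 0.0152). That call ended without nFoxA1Treg replicate 1 (adjusted p = 0.0690), without nFoxA1Treg replicate 2 (0.0675) and in the fit with the 6 arrays of these groups alone (0.0689). Treg arrays were 8.79, 8.74 and 8.54, between the other groups, and the change of -0.40 against EncT did not pass (95% interval -0.89 to 0.089, adjusted p = 0.277). The group means stood in the same order in the summed dendritic cell and MHC class II markers, though single arrays did not. Flt3 did not follow that order, at 2.75 in EncT, 3.33 in Treg and 3.17 in nFoxA1Treg, all below the filter level. The other markers of the list did. The summed level of these markers was 8.81, 9.05 and 8.81 in EncT, 6.33, 6.55 and 7.74 in nFoxA1Treg, and 8.18, 7.83 and 7.84 in Treg. Group means lay above the filter level for 5 of the 6 markers in EncT, 1 in nFoxA1Treg and 4 in Treg. Of the 4 such markers tested, 4 fell in nFoxA1Treg and 2 in Treg against EncT. Replicate 3 of nFoxA1Treg was the highest of its group in Dusp2 and in those markers, while EncT replicate 3 lay below 3 of the regulatory arrays in Dusp2 and above all 6 in the markers. Macrophage and monocyte markers fell in 4 of 7 tested in nFoxA1Treg and 3 of 7 in Treg. B cell markers fell in 2 of 5 and 0 of 5, and T cell markers in 1 of 7 in each, with 0 higher in any of these lists. Over all probe sets tested 8.67% fell in nFoxA1Treg and 7.69% in Treg. Group means lay above the filter level for 7 of 8 macrophage and monocyte markers in EncT and 4 in each regulatory group. For B cell markers 2 of 6 did in every one of these groups. In nFoxA1Treg Lyz2, Fcgr3, Cybb and Cd79b had means of 1.25, 1.68, 0.25 and -0.35. Values that low are noisy. In the iFoxA1Treg group the same genes had means of 12.36, 9.72, 11.33 and 12.17. Over the other 9 arrays the mean of each was under 4.05, as were those of Blk and Ms4a1. All of these were thus tested because of their iFoxA1Treg levels. No conclusion is drawn from these counts, nor from setting them beside the share over all probe sets. The part of cells with such markers in the differences of Dusp1, Dusp2, Dusp5 and the pathway genes against EncT was not tested.

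Dusp4 (chr8:34807610-34819894, probe set 1428834_at), which encodes MKP-2, another nuclear phosphatase of ERK and JNK, had the widest spread of the members past the filter. Its values were 6.15, 6.48 and 5.37 in EncT, 6.20, 6.18 and 7.35 in nFoxA1Treg, and 6.67, 6.71 and 6.60 in Treg. The lowest of the 9 arrays was EncT replicate 3 and the highest nFoxA1Treg replicate 3, both far from the rest of their groups. Neither the difference of 0.57 in nFoxA1Treg against EncT (95% interval -0.061 to 1.21, adjusted p = 0.217) nor that of 0.66 in Treg (0.023 to 1.30, adjusted p = 0.163) passed, although the Treg arrays did not overlap EncT. Without nFoxA1Treg replicate 3 its difference from EncT was 0.19 (adjusted p = 0.674), and without EncT replicate 3 it was 0.26 (0.615).

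Dusp5 (chr19:53529145-53541809, probe set 1437199_at) encodes the nuclear phosphatase selective for ERK. It was 7.70, 7.50 and 7.70 in EncT and 7.90, 8.0 and 8.08 in nFoxA1Treg, without overlap. It rose 1.29-fold in nFoxA1Treg (8.0 ± 0.091 against 7.63 ± 0.12, adjusted p = 0.0240). The call ended without EncT replicate 2 (0.0610), nFoxA1Treg replicate 2 (0.0722) or nFoxA1Treg replicate 3 (0.0769), the values in parentheses being adjusted p. Treg spanned 7.65, 7.73 and 7.99 and overlapped EncT (difference 0.16, 95% interval -0.054 to 0.37, adjusted p = 0.326). The order of group means was nFoxA1Treg, Treg, EncT, and neighbours in that order did not differ beyond the test's threshold.

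Dusp6 (chr10:99263231-99267489, probe set 1415834_at), which encodes the cytoplasmic ERK phosphatase MKP-3, stayed within a narrow range. It was 8.29, 7.92 and 7.97 in EncT, 8.30, 8.30 and 8.26 in nFoxA1Treg, and 8.31, 8.31 and 8.26 in Treg. EncT replicate 1 lay level with the regulatory arrays and apart from both other EncT arrays. The differences of 0.23 in nFoxA1Treg and 0.24 in Treg against EncT did not pass (adjusted p = 0.0702 and 0.0705). Without EncT replicate 1 they were 0.35 and 0.35, with adjusted p of 0.00167 and 0.00191. Between nFoxA1Treg and Treg the difference was -0.0063, with a 95% interval of -0.18 to 0.17.

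Dusp10 (chr1:184034381-184075636) encodes MKP-5, the phosphatase of JNK and p38. Its brighter probe set, 1417164_at, was 6.69, 6.97 and 6.95 in EncT, 7.07, 7.18 and 6.93 in nFoxA1Treg, and 6.99, 7.12 and 7.13 in Treg. All Treg arrays lay above EncT by a small margin, but the differences from EncT, 0.21 in Treg and 0.19 in nFoxA1Treg, did not pass (adjusted p = 0.177 and 0.206). The dimmer Dusp10 probe set, 1417163_at, left out by the filter, was 3.98 to 4.86 in the 9 arrays, with overlapping groups. In a fit without the filter its difference was 0.31 in nFoxA1Treg and 0.026 in Treg against EncT (adjusted p = 0.640 and 0.983).

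Counted together, 3 of the 6 Dusp probe sets tested were called in nFoxA1Treg against EncT, 2 higher (Dusp1 and Dusp5) and 1 lower (Dusp2), where 17.1% of all 27022 probe sets tested were called (8.38% higher and 8.67% lower). For Treg set against EncT 1 was called, Dusp1, where the share over all probe sets was 14.0% (6.35% higher and 7.69% lower). Arrays of the compared groups did not overlap for 2 of the 6 (32.5% of all probe sets) and 3 of the 6 (32.1%), and between nFoxA1Treg and Treg for 1 of the 6 (11.2%). Against EncT 5 of the 6 had a positive difference in nFoxA1Treg and 5 in Treg, and the median difference was 0.30 and 0.22, beside 0.011 and 0.0081 over all probe sets tested. Between nFoxA1Treg and Treg limma called 0 of the 6, with 2 (Dusp1 and Dusp2) at an unadjusted p under 0.05 and 0 called in every alternative fit run. With limma's array weights, which count outlying arrays less, 6 were called in nFoxA1Treg and 3 in Treg (Dusp1, Dusp4 and Dusp6) against EncT, but that fit also called 36.9% and 33.1% of all probe sets. Without nFoxA1Treg replicate 2 Dusp1 alone was called in nFoxA1Treg (10.1% of all probe sets). Without EncT replicate 1 Dusp6 joined the calls, giving 4 in nFoxA1Treg and 2 in Treg (11.9% and 10.3%). Between nFoxA1Treg and Treg 2 of 27022 probe sets were called (0.00740%) and 933 had an unadjusted p under 0.05. All intervals of the difference between nFoxA1Treg and Treg lay within -1.01 to 0.55, the widest being those of Dusp4 and Dusp2.

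**Figure D2:**
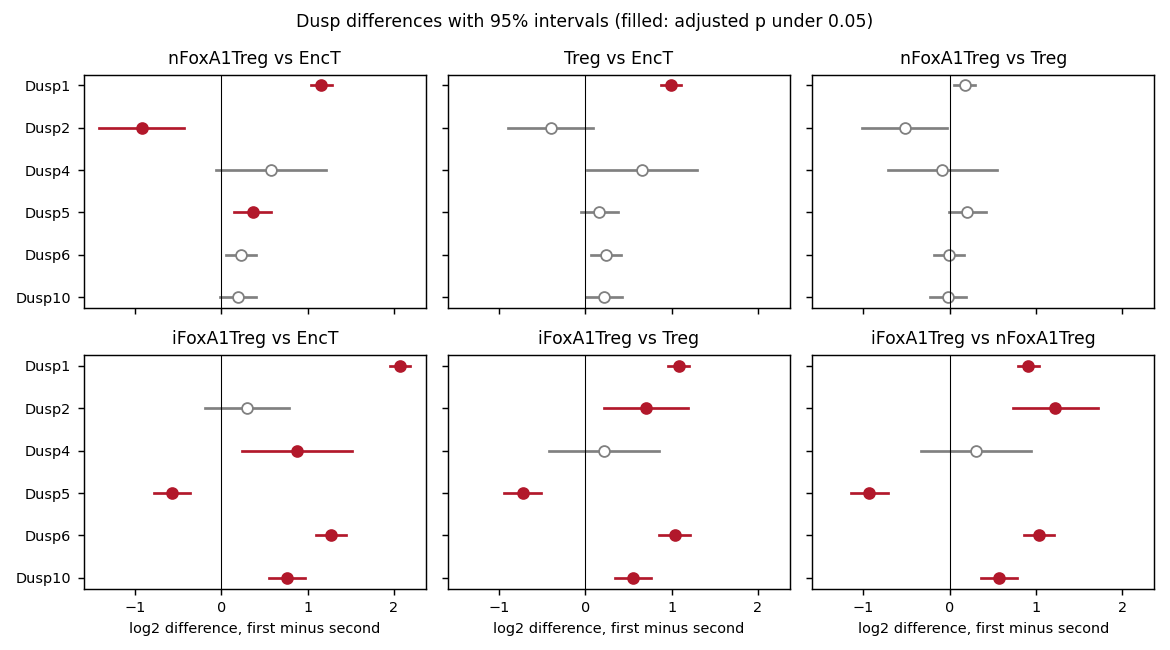
Log2 differences (x axis, first-named group minus second) of the 6 Dusp lead probe sets (y axis) in the 6 comparisons, with 95% intervals from the limma fit over all arrays. Filled points passed an adjusted p under 0.05: 3 for nFoxA1Treg and 1 for Treg when set against EncT, 0 between nFoxA1Treg and Treg, and 5 in each panel with the arrays labelled iFoxA1Treg.

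In the arrays labelled iFoxA1Treg, 5 of the 6 Dusp probe sets were called against each other group, 4 higher and 1 lower, where 70.2% of all probe sets were called against EncT (30.5% higher and 39.7% lower), 71.7% against Treg (31.2% and 40.5%) and 72.2% against nFoxA1Treg (30.9% and 41.3%). A count of 5 of 6 is near that background. Of the probe sets called against EncT 8253 were higher and 10726 lower, and with values as deposited 6208 were higher and 12670 lower, with a median difference over all probe sets of -0.23 in place of -0.074. Dusp1 was 9.68, 9.64 and 9.66, above every other array, and 4.20-fold higher than in EncT (adjusted p = 2.87e-12), 2.12-fold higher than in Treg and 1.88-fold higher than in nFoxA1Treg. Dusp6 was 9.35, 9.33 and 9.29, also above every other array, and 2.05-fold higher than in nFoxA1Treg (adjusted p = 7.90e-08), 2.04-fold higher than in Treg and 2.41-fold higher than in EncT. Dusp5 was the member that fell. Its values of 6.98, 7.04 and 7.17 lay below all other arrays, 1.91-fold below nFoxA1Treg (adjusted p = 1.63e-06), 1.66-fold below Treg and 1.48-fold below EncT.

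Dusp2 in these arrays was 9.46, 9.29 and 9.43, above all Treg and nFoxA1Treg arrays and within the range of EncT. It rose 2.33-fold over nFoxA1Treg (adjusted p = 2.92e-04) and 1.63-fold over Treg (adjusted p = 0.0137). The latter call ended without Treg replicate 3 (adjusted p = 0.0508). Against EncT the difference was 0.30 (95% interval -0.19 to 0.79, adjusted p = 0.254). Dusp4 was 6.94, 6.86 and 6.82, above all EncT arrays by 1.83-fold on average (adjusted p = 0.0172), a call that ended without EncT replicate 3 (adjusted p = 0.0906) and with values as deposited (0.0522). It was not called against Treg (0.22, adjusted p = 0.524) or nFoxA1Treg (0.30, adjusted p = 0.373).

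The 2 probe sets of Dusp10 pointed opposite ways in the arrays labelled iFoxA1Treg. The brighter was 7.54, 7.64 and 7.71 and rose 1.69-fold over EncT (adjusted p = 1.04e-05). The dimmer was 1.39, 1.81 and 1.64, below every array of the other groups, and fell by 2.73 log2 against EncT in the fit without the filter (adjusted p = 4.60e-06), or by 0.94 on the scale log2(value + 16), which damps noise near the floor. A direction for Dusp10 in those arrays therefore rests on which probe set is read. Dusp1 and Dusp6 have 1 probe set each here, so no second probe set could be compared. The summed macrophage, B cell and MHC class II marker levels were far higher in the same arrays, as given above. Of the dendritic cell genes listed with MHC class II, Itgax was 3.20 there and 4.18 in EncT, and Flt3 was 4.68 and 2.75. The part of cells with such markers in these Dusp values was not tested.

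The other genes of the pathway came from 8 lists with 115 genes, of which 105 had a probe set with 1 gene symbol and 95 had a lead (brightest) probe set past the filter. In nFoxA1Treg against EncT 5 of the 95 rose and 17 fell, where 7.77% of all 12609 lead probe sets rose and 10.3% fell. In Treg against EncT 4 rose and 15 fell, where 5.42% rose and 9.29% fell. Between nFoxA1Treg and Treg limma called 0 of the 95, where 0.00793% of all lead probe sets were called. At an unadjusted p under 0.05 there were 3 of the 95, beside 933 of all 27022 probe sets tested. The counts against EncT, 22 and 19 in all, moved with the fit. The share of all probe sets called moved with it, from 17.1% and 14.0% in the fit reported. With only the 6 arrays of the compared groups the counts were 11 for nFoxA1Treg and 10 for Treg (9.04% and 8.69% of all probe sets). Without nFoxA1Treg replicate 1 or 2 the count for nFoxA1Treg was 13 or 14 (9.83% and 10.1%), and without Treg replicate 2 or 3 that for Treg was 10 or 12 (6.98% and 7.55%). Array weights gave 41 and 38 (36.9% and 33.1%).

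The wider family gave no calls among the T cell groups. Of 16 other dual-specificity and MAP kinase phosphatases tested, limma's fit called 0 in nFoxA1Treg or Treg against EncT. It called 18.1% and 14.7% of all lead probe sets there. The median difference of the 16 was -0.057 and -0.098. The atypical phosphatase gene Dusp3 was at -0.36 in nFoxA1Treg (adjusted p = 0.234) and -0.55 in Treg (adjusted p = 0.0730). Dusp7, a cytoplasmic ERK phosphatase gene like Dusp6, was at -0.40 in Treg (adjusted p = 0.104). At an unadjusted p under 0.05, 0 of the 16 differed in nFoxA1Treg and 4 in Treg against EncT. Of all 27022 probe sets tested, 8033 and 7542 were at that level.

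Upstream of the phosphatases' substrates the called genes were mostly lower in the regulatory groups. Calls over all lead probe sets leaned the same way: 10.3% fell and 7.77% rose in nFoxA1Treg, and 9.29% and 5.42% in Treg. Those shares stand beside each count in this and the next paragraph, and whether a list departs from them was not tested. Among Ras and its regulators 0 of 15 rose and 4 fell in both comparisons. Sos1, a guanine nucleotide exchange factor that loads Ras with GTP, fell by 0.55 in nFoxA1Treg and by 0.57 in Treg (adjusted p = 0.00196 and 0.00215), Rasgrp1, the diacylglycerol-responsive Ras activator of T cells, fell by 0.40 and by 0.32, and the Ras relative Rras fell by 0.73 and by 0.58. The fourth was Sos2, a second exchange factor, at -0.26 and -0.37. Of 12 RAF and MAP kinase kinase kinase genes 0 rose, and 3 fell in nFoxA1Treg and 2 in Treg. Map3k2 was at -0.61 and -0.41, and Map3k1 at -0.56 and -0.53. Map3k8, which activates the ERK cascade downstream of inflammatory receptors, fell by 0.47 in nFoxA1Treg and stood at -0.39 in Treg (adjusted p = 0.0543). Of 6 MAP kinase kinases 1 fell in each comparison, Map2k1, which encodes the ERK kinase MEK1, by 0.33 and by 0.42 (adjusted p = 0.00663 and 0.00240).

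Among the MAP kinases themselves 2 of 8 rose in nFoxA1Treg, Mapk6 (0.38, adjusted p = 0.00622), an atypical family member, and Mapk8 (0.54, adjusted p = 0.0487), which encodes JNK1. Mapk6 alone was called in Treg (0.27, adjusted p = 0.0384), where Mapk8 stood at 0.52 (adjusted p = 0.0606). The Sprouty and Spred genes, feedback inhibitors of the Ras to ERK route, had 4 members tested of 7. Spry2 fell in nFoxA1Treg (-0.63, adjusted p = 0.0468) and Spry1 in Treg (-0.59, adjusted p = 0.0165). Both lay near the filter level of 4.05, Spry2 at 4.56 against 5.19 in EncT and Spry1 at 4.93 against 5.53. On the scale log2(value + 16) the differences were -0.41 and -0.41. Of 17 kinases and factors downstream of MAP kinases 0 rose and 2 fell in each comparison, the AP-1 factor Jund (-0.41 and -0.42) and Atf2 (-0.24 and -0.23), a substrate of JNK and p38. Mef2c is among these 17, though its means of 2.86 in nFoxA1Treg and 3.08 in Treg lay below the filter level.

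**Figure D3:**
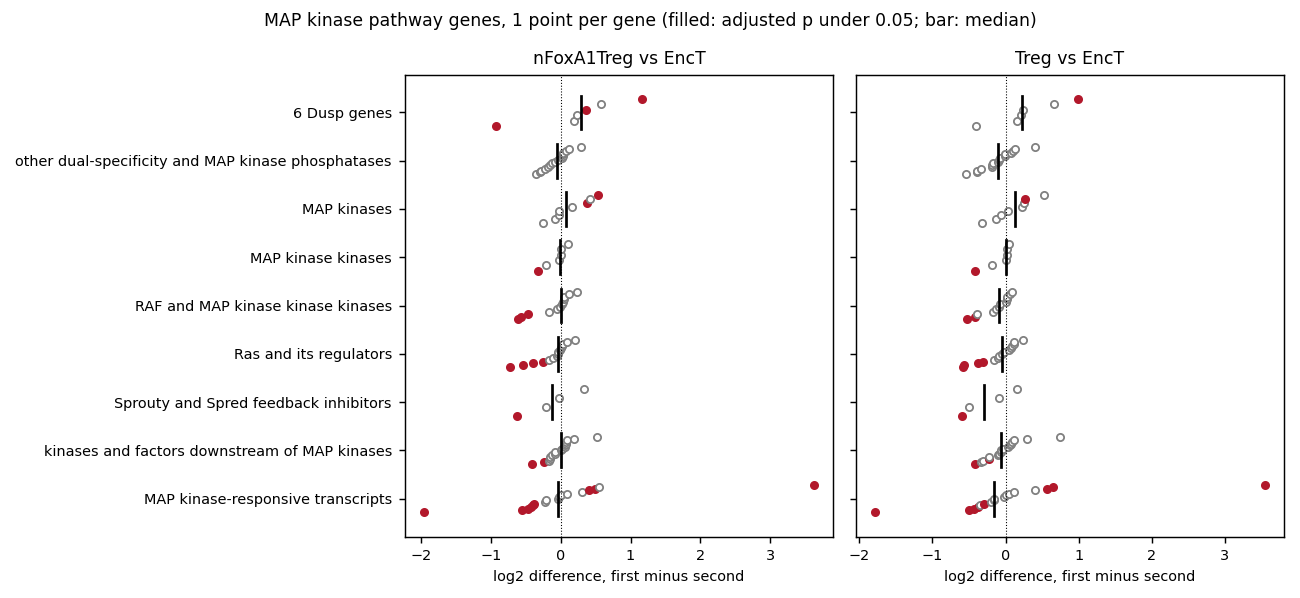
Log2 differences (x axis) of the 6 Dusp genes and of the genes in 8 MAP kinase pathway lists (y axis), 1 point per gene, in nFoxA1Treg (left) and Treg (right) against EncT, with filled points past an adjusted p under 0.05 and a bar at each list's median. The Ras regulators have 4 filled points in each panel, all below 0, where 10.3% (left) and 9.29% (right) of all lead probe sets fell. The responsive transcripts run from -1.96 (Ier3) to 3.63 (Fos) in nFoxA1Treg. The Fos value is set against an EncT mean of 3.31, below the filter level of 4.05, and is 2.38 on the scale log2(value + 16).

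Transcripts that respond to MAP kinase signalling split in the regulatory groups. Of 17 tested, 3 rose and 6 fell in nFoxA1Treg against EncT, where 7.77% of all lead probe sets rose and 10.3% fell. In Treg against EncT 3 rose and 5 fell, where 5.42% rose and 9.29% fell. The median differences of the 17 were -0.041 and -0.16. Among the 17 is Ccnd1, which passed the filter through the arrays labelled iFoxA1Treg alone. Fos, the AP-1 factor induced through the serum response element, rose as Dusp1 did, to 6.94 ± 0.31 and 6.86 ± 0.18 from 3.31 ± 0.85 in EncT (adjusted p = 2.27e-05 and 4.11e-05). The EncT mean lies below the filter level, so the size of the rise rests on noise near the floor, and on the scale log2(value + 16) it was 2.38 and 2.31. Egr1, a zinc finger factor of the same early response, rose by 0.49 and 0.56. Ier3, another early response gene, fell 3.89-fold and 3.44-fold, and Myc fell by 0.39 and by 0.30. Zfp36, which encodes an RNA-binding protein that speeds the decay of cytokine messages, fell by 0.56 in nFoxA1Treg. Genes of the early response were thus called in both directions in each comparison.

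In the arrays labelled iFoxA1Treg no count over these transcripts is given, since Ccnd1, which encodes a cyclin of the G1 phase, passed the filter through those arrays alone, and 3 of the 20 genes listed did not pass it. Ccnd1 was 7.77 ± 0.33 there and had means of 3.75 to 3.96 in the other groups, and it is named after its values were seen. Fos reached 9.44 ± 0.012 and Egr1 10.29 ± 0.066 (SD, n = 3). Of the 12 arrays these thus had the highest Dusp1 and Dusp6, beside high Fos and Egr1, while Dusp5 was at its lowest there. Not every responsive transcript was high. Phlda1 (6.84, 6.90 and 6.62) lay far below every other array and Junb (9.56, 9.55 and 9.52) slightly below, both named after their values were seen.

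**Figure D4:**
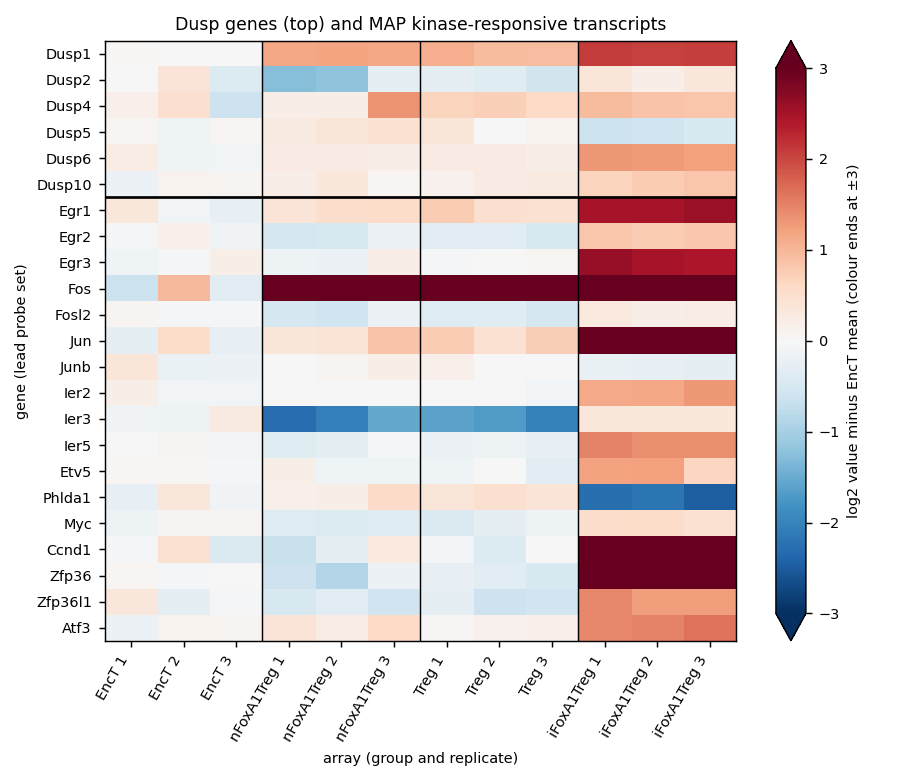
Log2 value of each gene (rows, the 6 Dusp genes above the line and 17 MAP kinase-responsive transcripts below) on each of the 12 arrays (columns) minus its mean in EncT, with colours ending at ±3. Dusp1 and Fos are raised in all 6 arrays of nFoxA1Treg and Treg, and Ier3 is lowered there. The arrays labelled iFoxA1Treg are raised in Dusp1, Dusp6, Fos and Egr1 and lowered in Dusp5 and Phlda1.

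The Dusp genes were also set against each other and against all genes over the 9 arrays of EncT, nFoxA1Treg and Treg. The arrays share group differences and the correlations are descriptions of these 9 points. Dusp1 ran with Dusp5 (Pearson r = 0.76) and Dusp6 (0.76) and against Dusp2 (-0.67). Over all 12 arrays the relation of Dusp1 to Dusp5 turned to -0.51, since Dusp5 was low where Dusp1 was highest in the arrays labelled iFoxA1Treg. Dusp2 and Dusp4, although both were high in nFoxA1Treg replicate 3, had an r of 0.19.

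Among 12477 other genes compared over the 9 arrays, those most like Dusp1 were Cox7c (r = 0.99), Ppp1r15a (0.99) and Irs2 (0.99). Genes in this and the next paragraph were picked by their correlation, so a pattern shared with a Dusp gene follows from that choice. Ppp1r15a encodes a phosphatase subunit that reverses the block of translation in stressed cells and Irs2 an adaptor of the insulin receptor. Ppp1r15a was 6.16 ± 0.13 in EncT, 7.19 ± 0.052 in nFoxA1Treg and 7.01 ± 0.12 in Treg, the same order of groups as Dusp1. Cox7c is read by a probe set whose suffix marks possible binding of several transcripts. Dusp2 was most like 4933401B06Rik (0.98), Fgl2 (0.98) and Ctss (0.97). Ctss, the lysosomal protease that trims the MHC class II invariant chain in antigen-presenting cells, was 11.22, 11.42 and 10.66 in EncT and 10.08, 10.21 and 11.03 in nFoxA1Treg, so its replicate 3 also stood above both others there.

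The genes nearest to Dusp4 were Ndufs1 (0.97), Ephb6 (0.97) and Ehd1 (0.94). Ehd1, an endocytic recycling protein gene, was 8.93 in EncT replicate 3, the lowest of the 9 arrays, and 9.49 in nFoxA1Treg replicate 3, the highest, as Dusp4 was. For Dusp5 they were Fam124a (0.94), Pdcd6 (0.94) and Ift172 (0.93). For Dusp6 they were Dis3l2 (0.96), B230308N11Rik (0.95) and Ccnl1 (0.95), and for the brighter Dusp10 probe set Rpl7a (0.96), Dixdc1 (0.95) and Psmd13 (0.95). No gene was shared between these lists of 3.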

How the data were processed

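RNA of 12 samples was measured on Affymetrix Mouse430_2 arrays. The authors deposited log2 probe set values. PLIER, which condenses probe signals to probe set values, is named in the submitters' processing notes, while its role and version, and any normalisation by the authors, were not given in the labels. Array medians spanned 0.202, so the values were quantile normalised. Probe sets were named from GEO's platform annotation (34945 with 1 gene, 932 with several, 9160 with none; 34741 matched to the RefSeq gene table by Entrez identifier). The brightest 60% by mean over 12 arrays were kept. limma 3.58.1 (R 4.3.3) fitted a mean for each group to the 12 arrays together, leaving 8 residual degrees of freedom, with an intensity trend, and p-values were adjusted by Benjamini-Hochberg over 27022 probe sets, with calls at an adjusted p under 0.05. The script was tested on simulated data.

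A gene's lead probe set is its brightest with 1 gene symbol. From each pathway list, genes among the 3 smallest adjusted p in any comparison between EncT, nFoxA1Treg and Treg could be named, and for likeness the 3 highest Pearson correlations over the 9 arrays of those groups. The Dusp genes and all lists were chosen with earlier results of these data known. Alternatives covered normalisation, filter, offset, intensity trend, arrays fitted, array weights, lead probe sets alone, the replicate number as a block, and leaving out each replicate. Values near 0 on the log2 scale are noisy, since 3.85% to 5.65% of values per array lay below 0.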

Additional observations from a re-analysis of the deposited data

How the results depend on the processing

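Of the counts of called Dusp probe sets, 67 of 69 under other settings and 34 of 36 with 1 replicate left out stayed within 1.5 times the count reported. The exceptions were array weights, with 6 called in nFoxA1Treg and 3 in Treg against EncT, and single replicates left out. Array weights called 36.9% and 33.1% of all probe sets in these comparisons, against 17.1% and 14.0% in the fit reported. Leaving out each replicate gave 1 to 4 for nFoxA1Treg and 1 to 2 for Treg against EncT, 0 to 0 between nFoxA1Treg and Treg, and, for the arrays labelled iFoxA1Treg, 4 to 5 against EncT, 4 to 5 against Treg and 5 to 6 against nFoxA1Treg. Dusp1 was called against EncT under every alternative run, at 1.10 to 1.18 in nFoxA1Treg and 0.93 to 1.02 in Treg. Dusp2 and Dusp5 were each called in nFoxA1Treg against EncT in 15 of 18 alternatives, with adjusted p of 9.84e-04 to 0.0690 and 0.00576 to 0.0769.

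Changes of sign occurred only between nFoxA1Treg and Treg, where no Dusp was called. Dusp6 and Dusp10 turned to 0.019 and 0.0086 with values as deposited, 0.039 and 0.028 with arrays centred on their medians, and 0.0070 and 0.028 with array weights. With 1 replicate left out, Dusp4 ranged from -0.47 to 0.11, Dusp6 from -0.024 to 0.0080 and Dusp10 from -0.077 to 0.047. The cause was not tested.

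The replicate number as a block left the counts at 3, 1, 0, 5, 5 and 5 and changed no call of a Dusp gene. Deviations of samples with the same number correlated at -0.19 to 0.21, with 3 of 18 pairs over 0.1, so the numbers were not taken to pair the samples. With 3 arrays per group, small differences such as those of Dusp6 and Dusp10 lie near the limit of this test.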
